A study of Mus musculus with 24 samples.

Results

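The genes described here are the Wnt ligands, their receptors and co-receptors, and the genes that set how strongly a Wnt signal is received. They were chosen by symbol: every Wnt and Frizzled (Fzd) gene, the co-receptors Lrp5, Lrp6, Ror1 and Ror2, the scaffold genes Axin1 and Axin2, the R-spondin receptors Lgr4 and Lgr5, and the ubiquitin ligase genes Rnf43 and Znrf3. This gave 39 genes, of which 38 were in both count tables and Fzd10 was in the siRNA table alone, out of 38937 genes (shRNA table) and 39310 genes (siRNA table). A gene counted as detected in a table when it exceeded 0.5 CPM (counts per 1000000 counts of the library) in at least 4 of its libraries.

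The data are 24 RNA-seq libraries in 6 groups of 4, made from primary lung adenocarcinoma cells of the mouse. Before culture the tumour cells had been sorted by flow cytometry for GFP and against CD45, per the submitters. The factor eIF2α starts translation, and its phosphorylation at a single serine triggers the integrated stress response, in which the transcription factor ATF4 is made. S/S cells carry eIF2α with that serine, and A/A cells carry alanine in its place. In the shRNA table, S/S cells received a scramble shRNA (shControl) or an shRNA against Atf4 (shAtf4). In the siRNA table, S/S and A/A cells each received a control siRNA (siControl) or an siRNA against Chchd10 (siChchd10), which encodes a mitochondrial intermembrane space protein. The labels name no age, strain, tumour driver or number of tumours or lines behind either genotype, so a difference between A/A and S/S cells cannot be told apart from a difference between the tumours they came from. The genotype field of the A/A siControl libraries reads WT, and their genotype was taken from the sample titles. Nothing in the labels states whether replicates are separate cultures. The p-values then measure only the spread between these samples, which may be technical.

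Wnt proteins are secreted lipid-modified signals that bind Frizzled receptors. Together with Lrp5 or Lrp6, a bound Frizzled stabilises β-catenin, which switches on target genes through TCF/LEF factors. Other ligands, of which Wnt5a is the standard example, mostly signal through Frizzled with Ror1 or Ror2 and without β-catenin. RNF43 and ZNRF3 remove Frizzled from the cell surface, R-spondins bound to LGR4 or LGR5 block that removal, and Axin2, Lgr5, Rnf43 and Znrf3 are themselves targets of β-catenin in many tissues. In the lung, Wnt signals from neighbouring cells maintain alveolar type 2 cells, and Wnt7b is made by the developing airway epithelium.

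Library totals ran from 14067290 to 70932804 counts with shRNA and from 42863650 to 75409451 counts with siRNA. Atf4 was 679 ± 173 CPM in S/S shControl and 271 ± 46.8 CPM in S/S shAtf4 libraries (mean ± SD, n = 4 throughout). Chchd10 went from 42.6 ± 3.84 to 6.30 ± 0.668 CPM under its siRNA in S/S cells and from 8.93 ± 1.13 to 1.83 ± 0.352 CPM in A/A cells. Replicate 4 of both shRNA groups stood apart from the other 6 libraries on the first principal component, which held 46.9% of the variance. In the siRNA table replicate 1 of A/A siControl was the A/A library closest to the S/S libraries on the first component of that table. In these bulk samples fewer cells of a kind and less RNA per cell cannot be told apart. The sum over 7 epithelial markers was 3805 to 6744 CPM across all libraries, and Epcam fell as low as 1.14 CPM in A/A siControl. Sftpc, the defining alveolar type 2 marker, stayed at 4.23 CPM or lower, and Nkx2-1, the lung lineage factor, was at 0 in the shRNA table, against 36.8 to 38.1 CPM in S/S siControl and 110 to 118 CPM in A/A siControl. Summed markers of leukocytes (7 genes) stayed between 1.89 and 4.32 CPM, those of fibroblasts (8 genes) between 2.23 and 18.4 CPM and those of endothelial cells (6 genes) between 0.563 and 3.10 CPM.

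The detection rule kept 18 of 38 genes in the shRNA table, where it kept 36.5% of all genes, and 25 of 39 in the siRNA table, where it kept 39.3%. Detected in both tables were 17 genes: Wnt5a, Wnt5b, Wnt7a, Wnt7b, Wnt9a, Wnt10a, Fzd1, Fzd2, Fzd4, Fzd5, Fzd6, Fzd7, Lrp5, Lrp6, Axin1, Lgr4 and Znrf3. The siRNA table added Wnt4, Wnt11, Wnt16, Fzd3, Fzd8, Fzd9, Ror1 and Rnf43, and the shRNA table added Wnt10b. Wnt1, Wnt2, Wnt2b, Wnt3, Wnt6, Wnt8a, Wnt8b, Wnt9b, Ror2, Lgr5 and Axin2 had counts in at least 1 table without being detected in either. No count was recorded for Wnt3a in either table, for Axin2 and Fzd3 in the shRNA table, or for Fzd10 in the siRNA table, which at 3 counts over all libraries allows up to 0.0102 CPM and 0.00368 CPM in the respective tables (counting error only). The fourth-highest library was at 0.629 CPM for Wnt5b, just inside the threshold of the shRNA table, and at 0.451 CPM for Wnt2b, just outside it. In the siRNA table Fzd9 was just inside at 0.548 CPM and Lgr5 just outside at 0.455 CPM. Of the 9 ligands detected in the siRNA table, 6 reached 4 libraries above the threshold in S/S cells alone (Wnt4, Wnt7a, Wnt9a, Wnt10a, Wnt11 and Wnt16), so a difference from A/A cells is partly built into their detection. The same limit holds for Fzd9, which reached the threshold in S/S cells alone, and for Wnt5b, which reached it in A/A cells alone.

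The makeup of the ligand mRNA differed between the groups. Levels were compared between genes as CPM after scaling of the library totals, per kilobase of exon. In S/S siControl cells the 19 ligands summed to 33.2 CPM per kilobase, of which Wnt10a gave 53.8% and Wnt7b 36.5%. In S/S shControl cells, measured in the other table and so not tested against them, the sum was 29.0 CPM per kilobase with Wnt7b at 80.7%, Wnt5a at 13.1% and Wnt10a at 1.49%. In A/A siControl cells the sum was 4.15 CPM per kilobase, of which Wnt5a gave 70.9%, Wnt10a 8.52% and Wnt7b 6.43%. Without replicate 1, an alternative chosen after seeing the data, the sum was 3.63 CPM per kilobase and the shares were 81.9%, 2.30% and 2.11%. The sum was 4.01 CPM per kilobase in A/A siChchd10 cells, with Wnt5a at 83.5%, and 41.4 CPM per kilobase in S/S siChchd10 cells, with Wnt10a at 56.8% and Wnt7b at 37.8%. Thus a pair of ligands led in the S/S cells of the siRNA table, 1 of these led in the S/S cells of the shRNA table, and Wnt5a led a much smaller total in A/A cells.

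**Figure D1:**
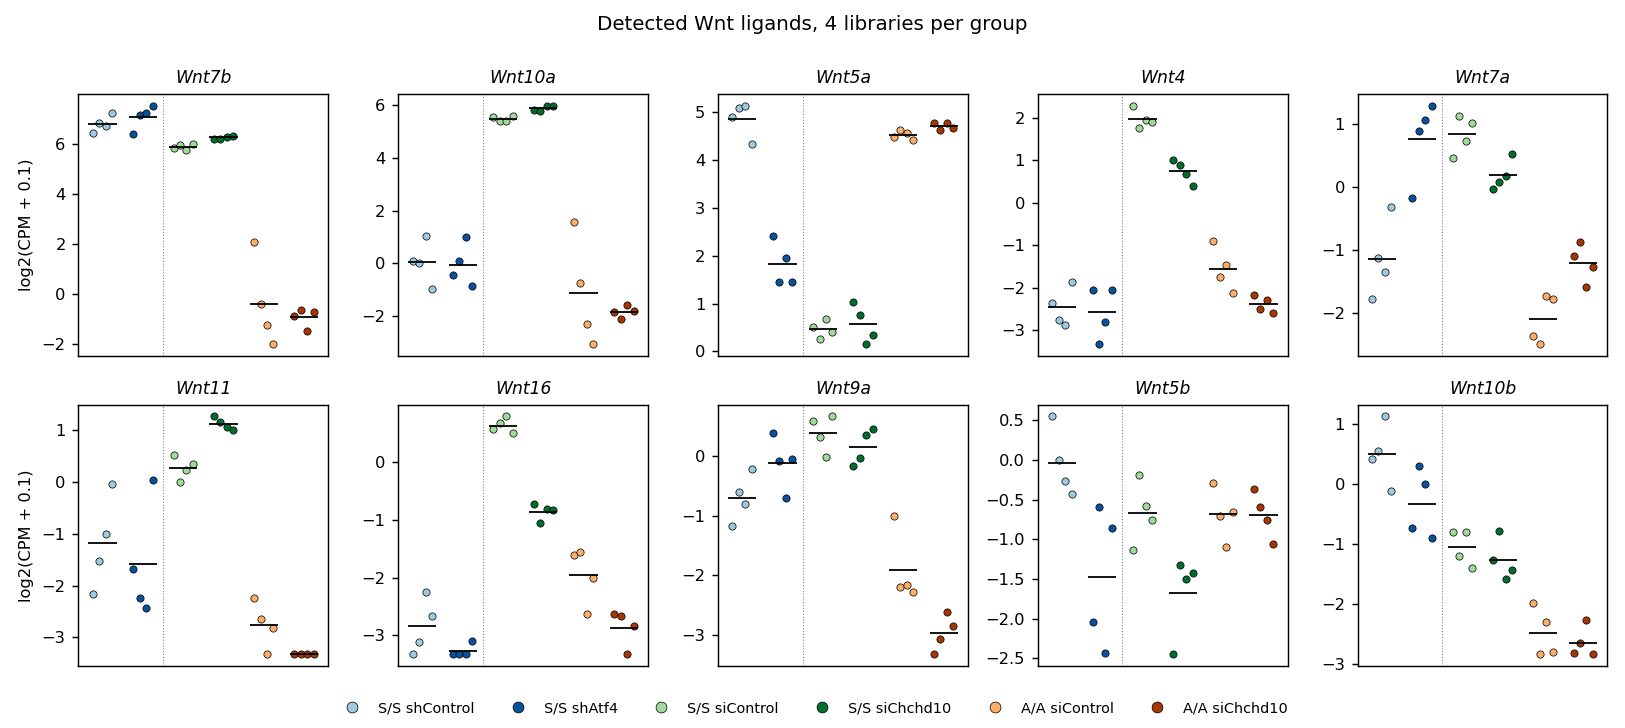
Levels of 10 detected Wnt ligands as log2(CPM + 0.1), 1 point per library and a bar at the mean of each group of 4, with the shRNA table left and the siRNA table right of the dotted line. Wnt7b and Wnt10a were high in S/S cells of the siRNA table and near the bottom in A/A cells, where replicate 1 of siControl lay above the other 3, while Wnt5a was high in S/S shControl and in both A/A groups.

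A/A cells were first compared with S/S cells under siControl, which asks what differs where eIF2α cannot be phosphorylated. Of 29 genes tested, 25 passed at an adjusted p under 0.05 (edgeR quasi-likelihood test), 8 higher and 17 lower in A/A cells, beside 70.2% of all 18138 genes tested. Their median log2 fold change was -0.39, beside 0.01 over all genes. With so many genes past the threshold, the sizes of the differences carry more than the count. Among the ligands, Wnt5a was higher in A/A cells while Wnt4, Wnt6, Wnt7a, Wnt7b, Wnt9a, Wnt10a, Wnt10b, Wnt11 and Wnt16 were lower. Of the lower ligands, Wnt4, Wnt7a, Wnt9a, Wnt10a, Wnt11 and Wnt16 had reached detection through S/S libraries alone. Wnt6 and Wnt10b were not detected in the siRNA table. The split of the ligands, and with it the count and median above, is therefore partly built into which genes were kept. The same limit holds under siChchd10. Wnt2b and Wnt5b did not pass.

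Wnt5a (chromosome 14, 28504543 to 28527448, plus strand, GRCm38.p6) encodes a ligand known for signalling without β-catenin. It was at 1.32, 1.09, 1.501 and 1.22 CPM in S/S siControl and at 22.3, 24.8, 23.6 and 21.4 CPM in A/A siControl libraries. Every A/A library was far above every S/S library, and the log2 fold change was 4.17 ± 0.11 (SE, adjusted p = 6.53e-22). Under siChchd10 the values were 1.959, 1.60, 1.01 and 1.17 CPM in S/S and 27.3, 24.6, 27.5 and 25.5 CPM in A/A libraries, a log2 fold change of 4.19 ± 0.11. From high to low the 4 siRNA groups therefore ran A/A cells with siChchd10, A/A cells with siControl, S/S cells with siChchd10 and S/S cells with siControl, and neighbours of the same genotype overlapped. They did not pass against each other, although the A/A pair did in 8 of 15 other settings, as given with the siChchd10 results.

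Wnt7b (chromosome 15, 85535437 to 85581821, minus strand) and Wnt10a (chromosome 1, 74792019 to 74804176, plus strand), both ligands with reported activity through β-catenin, moved the other way. Wnt7b was at 56.6, 62.4, 54.0 and 64.3 CPM in S/S siControl and at 4.10, 0.652, 0.327 and 0.150 CPM in A/A siControl. Wnt10a was at 45.7, 41.4, 41.3 and 48.0 CPM in S/S siControl and at 2.88, 0.494, 0.102 and 0.0214 CPM in A/A siControl. For both genes A/A replicate 1 was several-fold above the other 3 A/A libraries and at 6.92% (Wnt7b) and 6.52% (Wnt10a) of the S/S siControl mean. In the same library Wnt11 was at 10.1%, Wnt4 at 11.2%, Fzd6 at 13.3% and Wnt9a at 32.1% of that mean. Outside the chosen set, 8 genes had at least 20 CPM in every S/S siControl library and at most 0.5% of that mean in every A/A siChchd10 library. In A/A siControl replicate 1 their median was 6.42% of the S/S siControl mean (5.48% to 7.32%). The medians of the other A/A siControl libraries were 0.0530% to 0.843%. The cause was not tested. The log2 fold change was -5.44 ± 0.42 for Wnt7b (adjusted p = 5.24e-08) and -5.59 ± 0.43 for Wnt10a (5.25e-08). Without A/A siControl replicate 1 the log2 values were -7.26 ± 0.16 and -7.68 ± 0.22. Both genes overlap another annotated gene, AU022754 for Wnt7b and Gm32099 for Wnt10a, and the strand setting of the counting is not given in the sources used here.

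The other ligands that passed were less abundant. Wnt4, a ligand of kidney and gonad development, was at 4.75, 3.31, 3.76 and 3.65 CPM in S/S siControl against 0.435, 0.198, 0.266 and 0.129 CPM in A/A siControl, a log2 fold change of -3.88 ± 0.23 (adjusted p = 4.88e-15). Wnt7a was at 1.28, 2.07, 1.56 and 1.92 CPM against 0.0946, 0.0791, 0.204 and 0.193 CPM, a log2 fold change of -3.58 ± 0.28. Wnt11, which acts in tissue movements of the embryo, was at 1.35, 0.907, 1.08 and 1.17 CPM against 0.114, 0.0593, 0 and 0.0429 CPM. For each of these genes the groups did not overlap. The Wnt11 log2 fold change was -4.29 ± 0.35, and -4.94 ± 0.41 without A/A siControl replicate 1. Wnt16 (-3.07), Wnt9a (-2.68, and -3.37 without that library) and Wnt10b (-2.16) were lower as well. Wnt6 had 57 counts over the S/S siControl libraries and 1 count over the A/A siControl libraries, a ratio of 57.1 with a 95% counting interval of 9.85 to 2296.

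Promoter sequence was held in a RefSeq table (GRCm38.p6) for 26 of the 39 genes. The leading ligands Wnt5a, Wnt7b and Wnt10a were not among these, so their promoters were not searched for any motif. The 250 bases before the annotated start are shown for a pair of ligands that were lower in A/A cells, Wnt11 and Wnt4, and a pair of receptors that were higher there, Fzd1 and Fzd4, 5′ to 3′ on the strand of the gene. They lie at chr7:98834862-98835111 (plus strand) for Wnt11, chr4:137277385-137277634 (plus) for Wnt4, chr5:4758217-4758466 (minus) for Fzd1 and chr7:89404116-89404365 (plus) for Fzd4. Capitals mark a match to the TCF/LEF motif CTTTGAT, here read on the opposite strand.
Wnt11: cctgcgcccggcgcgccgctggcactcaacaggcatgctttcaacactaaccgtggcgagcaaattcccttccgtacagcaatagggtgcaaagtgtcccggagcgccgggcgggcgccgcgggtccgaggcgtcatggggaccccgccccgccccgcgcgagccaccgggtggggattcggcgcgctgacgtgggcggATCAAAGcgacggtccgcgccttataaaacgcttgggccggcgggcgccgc
Wnt4: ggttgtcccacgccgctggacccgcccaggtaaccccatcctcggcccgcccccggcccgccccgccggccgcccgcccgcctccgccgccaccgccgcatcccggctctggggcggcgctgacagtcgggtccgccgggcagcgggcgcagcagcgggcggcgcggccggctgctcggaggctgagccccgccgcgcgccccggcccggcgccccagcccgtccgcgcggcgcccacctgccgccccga
Fzd1: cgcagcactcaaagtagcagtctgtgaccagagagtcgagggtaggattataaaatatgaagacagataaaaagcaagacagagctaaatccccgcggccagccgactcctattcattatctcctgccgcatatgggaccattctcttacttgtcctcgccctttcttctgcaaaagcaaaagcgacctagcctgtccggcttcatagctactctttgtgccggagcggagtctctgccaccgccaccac
Fzd4: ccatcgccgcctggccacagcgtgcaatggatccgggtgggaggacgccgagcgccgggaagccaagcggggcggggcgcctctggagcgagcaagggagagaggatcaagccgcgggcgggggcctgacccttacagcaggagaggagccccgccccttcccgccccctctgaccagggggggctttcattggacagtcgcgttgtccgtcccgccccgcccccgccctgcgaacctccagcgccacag
The motif was searched on both strands, as were the ATF4 composite motif TGATGNAA and the cyclic AMP response element TGACGTCA. Over the 30 starts of these 26 genes, CTTTGAT was found at 2, the Wnt11 start shown and 1 of the Wnt5b starts, beside 3.21% of 32851 promoter windows of the same length. TGATGNAA was found at 0 of 30, beside 3.45% of all windows, and TGACGTCA at 0 of 30, beside 1.55%. GC content ranged widely among the 4 windows shown, from 51.2% for Fzd1 to 85.2% for Wnt4.

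Of the 9 Frizzled genes tested, 5 were higher and 3 lower in A/A siControl cells, beside 35.6% higher and 34.7% lower over all genes. All 10 Frizzled genes summed to 54.8 CPM per kilobase in S/S siControl and 85.6 CPM per kilobase in A/A siControl cells, a sum that was not tested, with Fzd5 first in both at 16.1 and 29.5 CPM per kilobase. Fzd1, which encodes a receptor for β-catenin signalling (chromosome 5, 4753839 to 4758216, minus strand), was 11.4 ± 1.05 CPM in S/S and 47.0 ± 3.57 CPM in A/A siControl libraries. Its log2 fold change was 2.04 ± 0.07 (adjusted p = 6.87e-21). Fzd4, known as the receptor for norrin in retinal vessels (chromosome 7, 89404366 to 89410110, plus strand), was 24.4 ± 0.429 CPM against 65.1 ± 4.84 CPM, a log2 fold change of 1.41 ± 0.06. It overlaps Tmem135 in the annotation. Fzd8 rose from 2.98 ± 0.398 to 17.4 ± 1.51 CPM (log2 2.54 ± 0.10), Fzd5 from 111.5 to 203.9 CPM (log2 0.87 ± 0.05) and Fzd2 from 47.9 to 60.5 CPM (log2 0.34 ± 0.05), where each first value is S/S and each second A/A.

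Not every Frizzled followed. Fzd6, a receptor of planar cell polarity in skin and hair, was 16.3 ± 1.26 CPM in S/S siControl and 1.41 ± 0.605 CPM in A/A siControl, a log2 fold change of -3.52 ± 0.17. Fzd3, which acts in the same process in neurons, was 2.24 ± 0.291 against 1.21 ± 0.255 CPM (log2 -0.88 ± 0.17), and Fzd9, detected through its S/S libraries alone, was 0.591 against 0.189 CPM. Fzd7 did not pass, at 67.6 against 69.2 CPM with a 95% interval of the log2 fold change from -0.06 to 0.12. Groups did not overlap for any Frizzled that passed. The share of all genes without overlap was not computed, so this describes single genes and not the Frizzleds as a set.

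Among the co-receptors Lrp5 and Lrp6 moved little, while Ror1 and Ror2 were lower in A/A cells. Lrp6 was 212 ± 5.23 CPM in S/S siControl and 252 ± 9.06 CPM in A/A siControl (log2 0.25 ± 0.04), and Lrp5 was 246.4 and 255.4 CPM and did not pass. Ror1, a receptor for Wnt5a, was lower in A/A cells at 2.44 ± 0.0651 against 4.19 ± 0.434 CPM (log2 -0.77 ± 0.13), although Wnt5a itself was higher. Ror2 had 25 counts over the S/S siControl libraries and 0 over the A/A siControl libraries, which is at least 8.35-fold lower against a floor of 3 counts over the group. Under siChchd10 it had 26 and 0 counts, at least 9.85-fold lower.

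**Figure D2:**
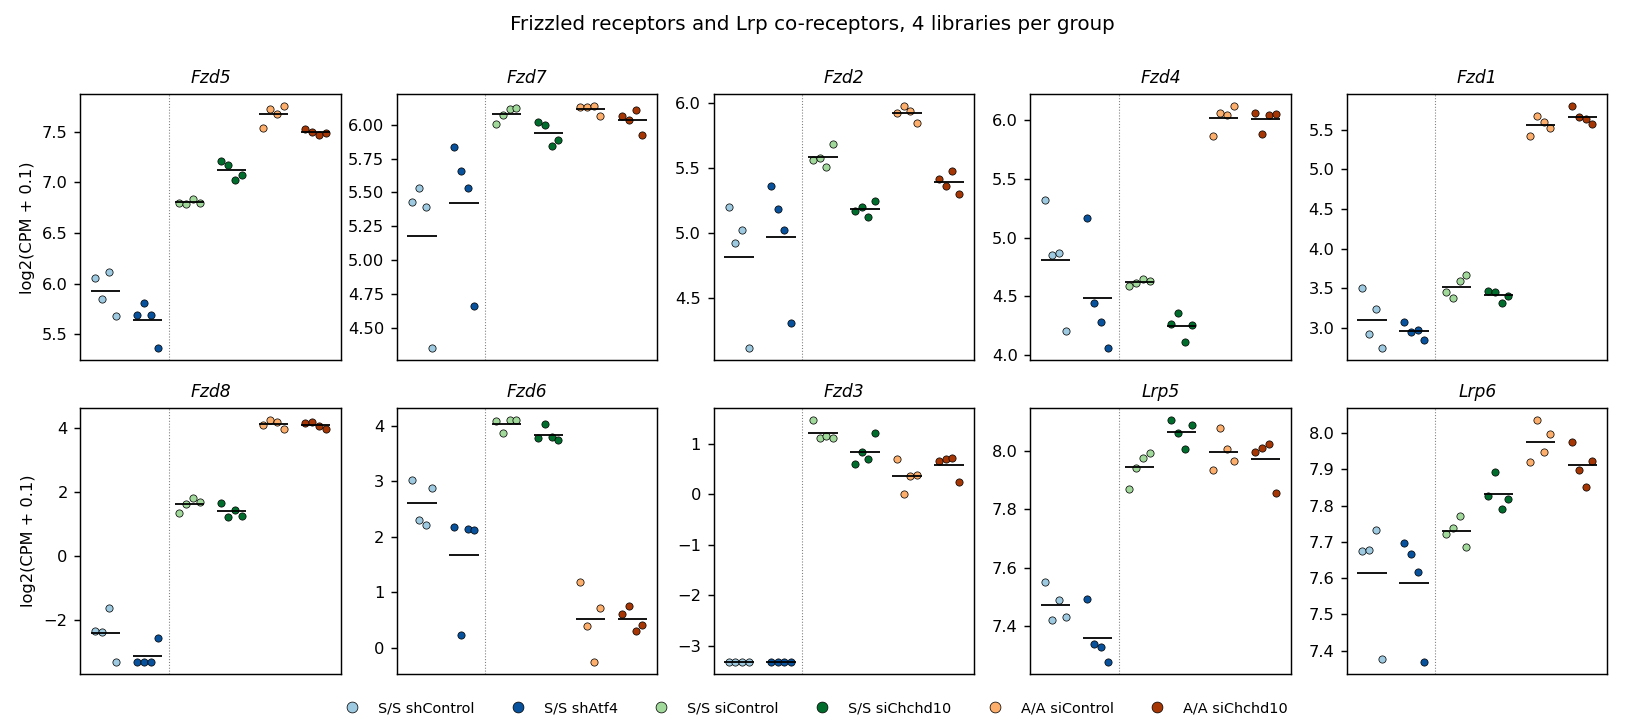
Levels of 8 Frizzled genes and the co-receptors Lrp5 and Lrp6 as log2(CPM + 0.1), 1 point per library and a bar at each group mean. Fzd1, Fzd4, Fzd8 and Fzd5 were higher in both A/A groups than in both S/S groups of the siRNA table, Fzd6 was lower, and Fzd3 and Fzd8 were at or near 0 in the shRNA table.

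The feedback genes did not rise or fall as a set. Axin2, the most general target of β-catenin, was at 0.189, 0.0926, 0.0190 and 0.0427 CPM in S/S siControl and at 0.0189, 0, 0.0613 and 0.0643 CPM in A/A siControl libraries, from 1 to 8 and from 0 to 3 counts each. It was too low to be tested. Lgr5, a stem cell marker of the gut, was at 0.591, 0.222, 0.323 and 0.555 CPM against 0.265, 0.217, 0.204 and 0.193 CPM, and its log2 fold change of -0.90 ± 0.32 passed (adjusted p = 0.0139) with overlapping groups. That call was lost without S/S siControl replicate 1 (adjusted p = 0.0685) or replicate 4 (0.0631). Rnf43 was at 8.39, 8.41, 8.32 and 7.79 CPM in S/S and 10.7, 12.3, 11.5 and 11.7 CPM in A/A siControl libraries, a log2 fold change of 0.49 ± 0.07 (adjusted p = 1.16e-06). Znrf3 was at 37.1, 34.9, 39.5 and 34.3 CPM against 30.5, 35.4, 32.8 and 33.0 CPM, a log2 fold change of -0.15 ± 0.05 (adjusted p = 0.0121). It no longer passed without A/A siControl replicate 1 (adjusted p = 0.0728) or S/S siControl replicate 3 (0.0830). Axin1, the constant scaffold of the β-catenin destruction complex, was 90.9 ± 3.95 against 69.2 ± 1.33 CPM (log2 -0.39 ± 0.04). Lgr4 was 44.7 ± 2.41 against 41.2 ± 1.23 CPM (log2 -0.11 ± 0.05, adjusted p = 0.0397), a call lost when any of S/S siControl replicates 1 and 3 or A/A siControl replicates 1, 2 and 3 was left out, and lost too with the replicate number as a block (adjusted p = 0.0523), with no scaling beyond library totals (0.110) and with no filter on low counts (0.0743).

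**Figure D3:**
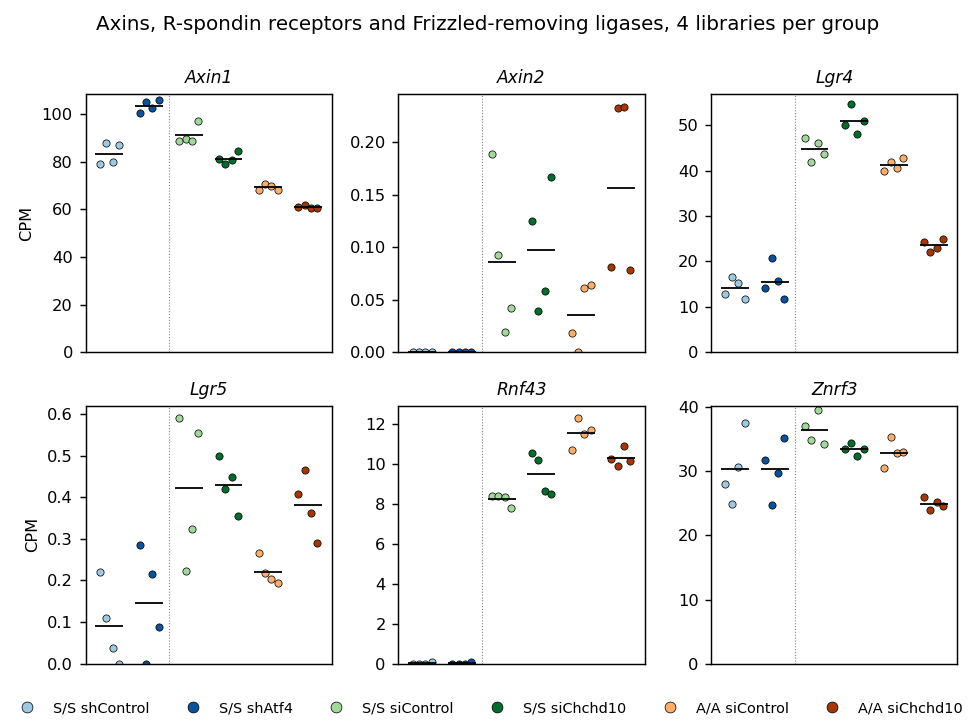
CPM of Axin1, Axin2, Lgr4, Lgr5, Rnf43 and Znrf3 on linear axes from 0, 1 point per library and a bar at each group mean. Axin2 stayed at 0.234 CPM or lower and Lgr5 at 0.591 CPM or lower in every library, Rnf43 was near 0 in the shRNA table and 7.79 to 12.3 CPM in the siRNA table, and Lgr4 was lowest within the siRNA table in A/A siChchd10.

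Under siChchd10 the genotype difference covered 23 of the 29 genes, 8 higher and 15 lower in A/A cells, beside 70.5% of all genes (34.7% higher and 35.8% lower). Wnt10a was at 55.4, 54.2, 61.4 and 61.1 CPM in S/S and 0.184, 0.136, 0.234 and 0.184 CPM in A/A siChchd10 libraries (log2 -8.29 ± 0.53, adjusted p = 7.27e-09). Wnt7b was at 74.4, 73.3, 78.0 and 80.6 CPM against 0.449, 0.543, 0.255 and 0.499 CPM (log2 -7.41 ± 0.48). Both A/A groups were thus below both S/S groups in every library for these ligands, and here no A/A library stood above the others. Wnt11 had 412 counts over the S/S and 0 over the A/A siChchd10 libraries, at least 156-fold lower against the floor. Wnt9a was at 0.792, 0.877, 1.19 and 1.27 CPM against 0, 0.0194, 0.0638 and 0.0394 CPM (log2 -4.94 ± 0.45). Wnt4 was between 1.21 and 1.92 CPM against 0.123, 0.0776, 0.106 and 0.0657 CPM (log2 -4.12 ± 0.29). Fzd1, Fzd4, Fzd5 and Fzd8 were again higher, with log2 fold changes of 2.27, 1.77, 0.37 and 2.75, and Fzd6 again lower at -3.41. Wnt2b (1.81) and Wnt5b (1.18) were higher and Lgr4 (-1.10) was lower in A/A cells, where Wnt5b had reached detection through A/A libraries alone, and the siChchd10 effects on these 3 genes differed between the genotypes, as given below.

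Other markers and Y-linked genes differed between the genotypes as well, and their part in these differences was not tested. Summed Y-linked expression (4 genes) was 119 to 144 CPM in S/S siControl and 344 to 380 CPM in A/A siControl. The 9 alveolar type 2 markers summed to 140 to 152 CPM and 444 to 500 CPM, with Sftpb alone at means of 2.59 and 290 CPM. Of the 7 tested, 4 were higher and 2 lower in A/A cells, beside 35.6% and 34.7% of all genes. The 9 gut endoderm markers summed to 365 to 419 CPM and 553 to 573 CPM, and the 9 mesenchymal markers to 3830 to 4228 CPM and 3197 to 3378 CPM. In both groups the fibroblast sum stayed at 5.39 CPM or lower, with 2 of 8 genes above 0.5 CPM in S/S and 1 of 8 in A/A cells.

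**Figure D4:**
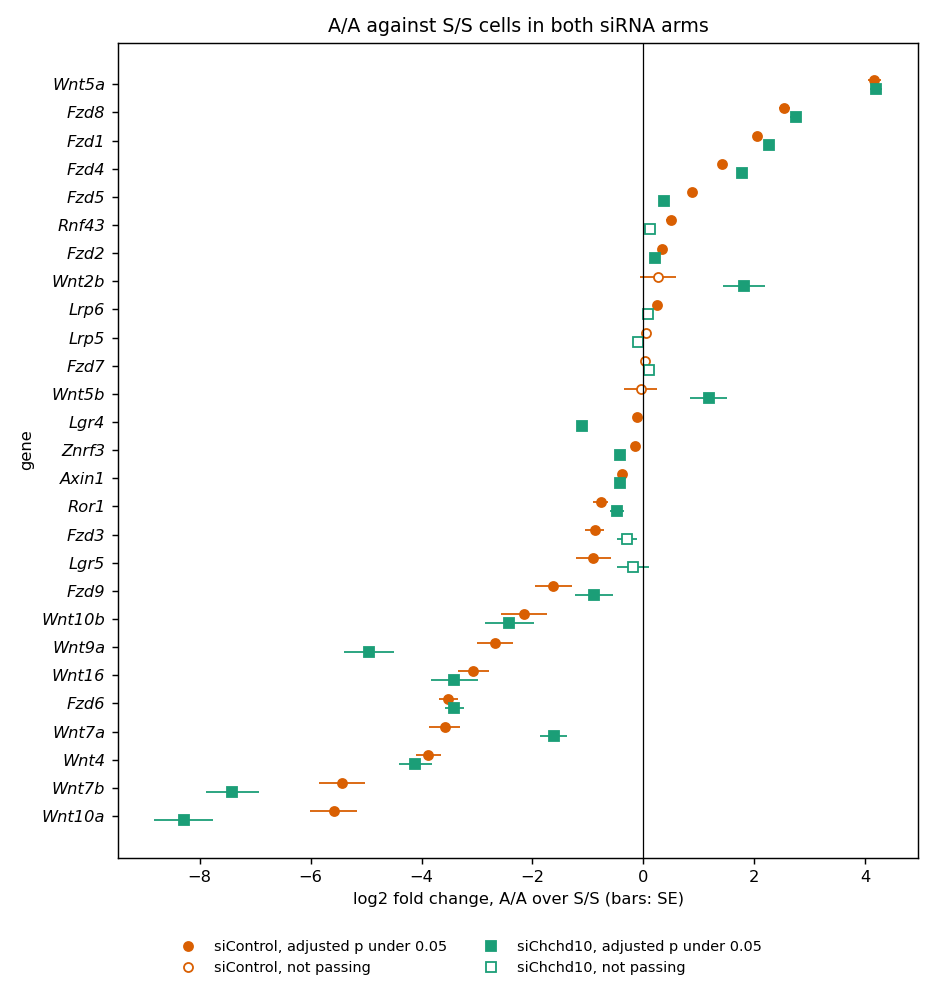
Log2 fold change of A/A over S/S cells with its SE for 27 of the 29 genes tested, under siControl (circles) and siChchd10 (squares), filled where the adjusted p was under 0.05. Wnt11 and Wnt6 are left out because a group held 0 or 1 count. Wnt5a, Fzd8, Fzd1 and Fzd4 lie at the right in both arms and Wnt7b and Wnt10a at the left.

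The Wnt pathway genes outside the chosen set were described from 6 lists, of which the list of β-catenin targets had 11 of 16 genes tested. All 11 passed between A/A and S/S siControl cells, 3 higher and 8 lower, with a median log2 fold change of -0.70. Over all genes 70.2% passed, 35.6% higher and 34.7% lower, and the counts of this and the following lists are to be read beside those shares. Lef1 and Tcf7, which encode TCF/LEF factors, were lower in A/A cells at 0.0969 against 4.02 CPM (log2 -5.29 ± 0.31) and 4.07 against 35.6 CPM (-3.12 ± 0.08). Bambi (1.19 ± 0.20) and Cd44 (0.60 ± 0.04) were higher. Of 2 secretion genes, Wls, the carrier that brings Wnt proteins to the cell surface, was higher at 262 ± 4.87 against 94.6 ± 4.31 CPM (log2 1.47 ± 0.04), and Porcn did not pass under siControl. Of 13 planar cell polarity genes tested, 4 were higher and 6 lower, among them Daam2 (2.81) and Daam1 (0.30) above and Prickle1 (-4.31) and Vangl2 (-2.56) below. Of 22 cytoplasmic and nuclear genes of the β-catenin pathway, 11 were higher and 7 lower, with Tcf7l1 (1.57) and Amer1 (0.89) above and Pygo1 (-1.52) and Ctnnb1 (-0.64), which encodes β-catenin, below. The receptor partners gave 3 higher and 4 lower of 8, with Adgra2, a co-receptor for Wnt7 ligands in brain vessels, lower at 8.68 against 78.6 CPM (log2 -3.18 ± 0.08) and Kremen1 at -0.47, and with Lgr6 (0.90) and Tspan12 (0.62) higher. Among 5 secreted modulators tested, 1 was higher and 3 were lower, and Dkk2, which binds Lrp6, was at 6.62 against 18.1 CPM (-1.45).

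The shAtf4 comparison asks which of these genes respond to loss of Atf4 in S/S cells. Of 19 genes tested, Wnt5a alone passed, lower in S/S shAtf4 cells, beside 0.538% of 14697 genes tested in either direction and 0.388% lower. At an unadjusted p under 0.05 there were 5. Wnt5a was at 29.73, 34.03, 34.95 and 20.27 CPM in shControl and 5.20, 2.65, 3.78 and 2.65 CPM in shAtf4 libraries. All shAtf4 libraries were below all shControl libraries, and the log2 fold change was -3.08 ± 0.27 (adjusted p = 0.00253, edgeR), an 8.33-fold difference of the means. Wnt5a fell from 13.1% to 1.48% of ligand mRNA per kilobase and Wnt7b stood at 80.7% and 92.6%. The knockdown libraries also differed in Y-linked expression: the 4 genes summed to 111 to 135 CPM in shControl and 1.46 to 3.56 CPM in shAtf4 libraries, all 4 lower. An effect of Atf4 loss and a difference between the cell populations that carried each shRNA cannot be told apart here. Fibroblast markers summed to 3.68 to 18.4 CPM and 2.85 to 14.1 CPM in these groups, with Col1a1 alone of the 8 above 0.5 CPM in each and Col3a1 at 0.

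Libraries with the same replicate number varied together in the shRNA table, and with the number as a block 9 of the 19 genes passed, 4 higher and 5 lower, beside 20.2% of all genes. The call on Wnt5a held (log2 -3.06 ± 0.15, adjusted p = 3.01e-08). Wnt7a was at 0.193, 0.358, 0.293 and 0.701 CPM in shControl and 0.784, 1.75, 1.98 and 2.32 CPM in shAtf4 libraries, which did not overlap. Its log2 value of 2.29 ± 0.46 had an adjusted p of 0.0797 without the block and 0.000311 with it. Axin1 was 83.3 ± 4.57 and 103 ± 2.59 CPM, with adjusted p-values of 0.139 and 0.000956. The other genes that passed with the block alone were Wnt7b (blocked log2 0.26) and Fzd7 (0.25) on the higher side, and Wnt5b (-1.46), Fzd6 (-0.86), Fzd4 (-0.32) and Fzd5 (-0.29) on the lower side. Without replicate 4 of both groups and with no block, 4 genes passed: Wnt5a, Wnt5b, Wnt7a and Axin1. In that fit 1726 genes passed over all genes tested. Without shControl replicate 4 alone, Wnt7a passed beside Wnt5a (adjusted p = 0.0180).

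Receptors and feedback genes showed no call without the block. Lrp6 was 197 ± 20.8 and 193 ± 19.1 CPM in shControl and shAtf4 libraries, with a 95% interval of the log2 fold change from -0.24 to 0.18, and Lrp5 was 178 ± 7.46 and 165 ± 10.9 CPM. Fzd5 was the first Frizzled per kilobase in shControl at 8.83 CPM per kilobase and Fzd7 in shAtf4 at 9.87. Znrf3 was at 28.0, 25.0, 30.7 and 37.6 CPM in shControl and 31.8, 24.7, 29.8 and 35.2 CPM in shAtf4 libraries, with a 95% interval of the log2 fold change from -0.30 to 0.31. Rnf43 had 1 count over the shControl and 5 over the shAtf4 libraries, Axin2 had none, and Lgr5 stayed at 0.285 CPM or lower. Ror1 and Ror2 each had 6 counts over the shAtf4 and 0 over the shControl libraries. Levels of Rnf43, Fzd3, Fzd8 and Ror1 in the siRNA table, at 1.42 CPM or higher in the S/S libraries there, were thus far from the shRNA table although both hold cells labelled S/S, and this was not tested because the tables were made separately. In the 6 pathway lists 0 of 54 genes tested passed in edgeR without the block, with 7 at an unadjusted p under 0.05, and with the block 6 were higher and 7 lower, beside the 20.2% of all genes that passed with it.

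The siChchd10 comparison was made within each genotype, and the siControl libraries are the same as those of the genotype comparison. In S/S cells 15 of 29 genes passed, 6 higher and 9 lower, beside 28.0% of all genes. Ligands moved both ways. Wnt16, a ligand of bone and joint, fell from 1.37, 1.48, 1.61 and 1.30 CPM in siControl to 0.5001, 0.379, 0.468 and 0.459 CPM in siChchd10 libraries (log2 -1.67 ± 0.24, adjusted p = 4.83e-06). Wnt4 fell from 3.87 ± 0.617 to 1.60 ± 0.309 CPM (log2 -1.27 ± 0.17), the siChchd10 libraries lying below all siControl libraries. Wnt5b was at 0.354, 0.778, 0.570 and 0.491 CPM and then 0.0833, 0.299, 0.253 and 0.271 CPM (log2 -1.28 ± 0.33), and Wnt7a went from 1.71 ± 0.360 to 1.05 ± 0.201 CPM (log2 -0.71 ± 0.20) with overlapping libraries. Wnt11 rose from 1.13 ± 0.183 CPM to 2.31, 2.15, 1.99 and 1.90 CPM (log2 0.90 ± 0.20). Wnt2b fell as well (log2 -1.47). The leading ligands Wnt10a (44.1 ± 3.31 and 58.0 ± 3.74 CPM) and Wnt7b (59.3 ± 4.84 and 76.6 ± 3.39 CPM) did not pass, with 95% intervals of the log2 fold change from -0.13 to 0.92 and -0.17 to 0.90, although their libraries did not overlap. The fit took the spread of a gene from all 16 siRNA libraries, A/A siControl replicate 1 among them. These intervals therefore do not measure the spread of the S/S libraries alone. Wnt5a did not pass (log2 0.16 ± 0.16).

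Among receptors in S/S cells, Fzd5 rose from 111.5 to 139.2 CPM (log2 0.32 ± 0.05). Fzd2 was at 47.2, 47.7, 45.5 and 51.4 CPM and then 35.9, 36.6, 34.7 and 37.8 CPM (log2 -0.40 ± 0.05, adjusted p = 1.37e-07), a fall in every library. Fzd4 (-0.37) and Fzd7 (-0.14) fell too. Lgr4 rose from 44.7 ± 2.41 to 50.9 ± 2.77 CPM (log2 0.19 ± 0.05) and Axin1 fell (log2 -0.16). Rnf43 was at 10.6, 10.2, 8.63 and 8.51 CPM under siChchd10, a log2 rise of 0.20 ± 0.08 (adjusted p = 0.0441), and Lrp5 (0.12) and Lrp6 (0.10) passed by as narrow a margin. These 3 calls and that on Fzd7 were lost when single libraries were left out. For Rnf43 this held for each siControl library and for siChchd10 replicates 1 and 2 (adjusted p 0.0550 to 0.185), and for Fzd7 for replicates 3 and 4 of both groups (0.0631 to 0.0845). For Lrp5 it held for siControl replicates 1 and 2 and siChchd10 replicates 1, 2 and 4 (0.0552 to 0.136), and for Lrp6 for replicates 1, 2 and 4 of both groups (0.0552 to 0.165). With the replicate number as a block the calls on Rnf43 (adjusted p = 0.0592), Lrp5 (0.0552) and Lrp6 (0.0706) were lost as well. So were those on Rnf43 and Lrp6 with no scaling beyond library totals (0.0596 and 0.0612), with no filter (0.0629 and 0.0864) and with a fit of the compared groups alone (0.0820 and 0.0779), and those on Lrp5 and Lrp6 with RLE scaling (0.0508 and 0.0583). Znrf3, at 33.5, 34.4, 32.4 and 33.4 CPM under siChchd10, and Lgr5, at 0.5001, 0.419, 0.448 and 0.355 CPM, did not pass, and Axin2 held 16 counts over the siControl and 19 over the siChchd10 libraries. Lineage markers moved in the same comparison: Epcam went from 8.93 ± 0.599 to 34.8 ± 1.69 CPM, the gut endoderm markers from a sum of 365 to 419 CPM to one of 571 to 620 CPM with 4 of 7 tested higher, and 6 of 7 mesenchymal markers tested were lower and 1 higher. Their part in the changes of the Wnt genes was not tested.

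In A/A cells 11 of 29 genes passed, 2 higher and 9 lower, beside 53.7% of all genes. The share of 37.9% was thus below that over all genes. Wnt9a, a ligand of joint formation, was at 0.397, 0.119, 0.123 and 0.107 CPM in siControl and 0, 0.0194, 0.0638 and 0.0394 CPM in siChchd10 libraries (log2 -2.51 ± 0.61, adjusted p = 0.000995, and -1.80 without A/A siControl replicate 1, adjusted p = 0.0168). Wnt16 was at 0.227, 0.237, 0.0613 and 0.150 CPM and then 0.0613, 0.0582, 0 and 0.0394 CPM (log2 -2.02 ± 0.51). Wnt4 fell (log2 -1.51 ± 0.41, and -1.11 without that library) and Wnt7a rose, to 0.368, 0.446, 0.234 and 0.315 CPM (log2 1.26 ± 0.35, adjusted p = 0.00304). Wnt11 went from 11 counts over the siControl to 0 over the siChchd10 libraries, at least 4.20-fold lower. All of these ligands were under 0.5 CPM in every A/A library. Wnt10a and Wnt7b did not pass, and their fitted log2 values of -2.30 and -1.60 became -0.19 and 0.23 without A/A siControl replicate 1. Wnt5a, the leading ligand, was 23.0 ± 1.49 and 26.2 ± 1.41 CPM (log2 0.18 ± 0.08, adjusted p = 0.0510). In 8 of 15 other settings it passed, among them DESeq2 (adjusted p = 0.0177), no filter on low counts (0.0106) and a fit of the compared groups alone (0.00344), and over all 15 the adjusted p ran from 0.00344 to 0.128 and the log2 fold change from 0.15 to 0.23.

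The clearest change in A/A cells was in Lgr4, the R-spondin receptor, which fell from 40.0, 41.8, 40.5 and 42.7 CPM to 24.4, 22.2, 23.0 and 25.0 CPM (log2 -0.80 ± 0.05, adjusted p = 2.27e-13). Its groups were far apart. Znrf3 fell from 32.9 ± 2.01 CPM to 26.0, 23.98, 25.2 and 24.5 CPM (log2 -0.40 ± 0.05, adjusted p = 1.95e-07). Fzd2 fell from 60.5 ± 2.17 to 41.9 ± 2.19 CPM (log2 -0.53), and Fzd5 (-0.18) and Axin1 (-0.18) fell less. Rnf43 was at 10.3, 9.89, 10.9 and 10.1 CPM and did not pass (log2 -0.17 ± 0.07, adjusted p = 0.0530, and 0.0426 without A/A siControl replicate 1). Lgr5 was at 0.409, 0.466, 0.362 and 0.289 CPM against 0.220 ± 0.0317 CPM in siControl (log2 0.76 ± 0.32, adjusted p = 0.0454), a call lost on leaving out siControl replicate 2, 3 or 4 or siChchd10 replicate 1, 2 or 3 (0.0575 to 0.124), with no scaling beyond library totals (0.0515), with DESeq2 (0.0538) and with no filter (0.0835). Axin2 held 7 counts over the siControl and 33 over the siChchd10 libraries, at 0.0817, 0.233, 0.234 and 0.0788 CPM in the latter, and was not tested.

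**Figure D5:**
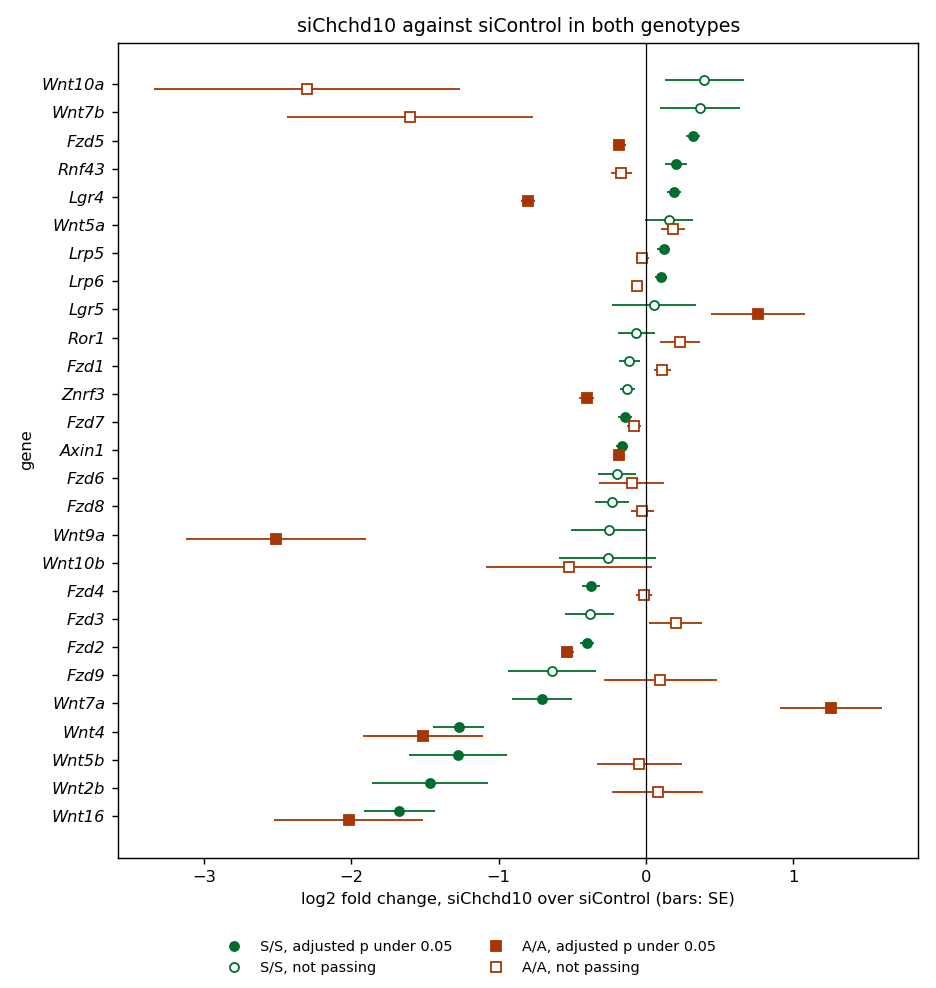
Log2 fold change of siChchd10 over siControl with its SE for 27 of the 29 genes tested, in S/S cells (circles) and A/A cells (squares), filled where the adjusted p was under 0.05. Wnt11 and Wnt6 are left out because a group held 0 or 1 count. Lgr4, Fzd5 and Wnt7a lie on opposite sides of 0 in the 2 genotypes, and Wnt16, Wnt4, Fzd2 and Axin1 lie left of 0 in both.

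The difference between the 2 siChchd10 effects passed for 11 of 29 genes, 4 higher and 7 lower in A/A than in S/S cells, beside 35.6% of all genes. For Lgr4 the effect was lower in A/A by 0.99 ± 0.07 on the log2 scale (interaction adjusted p = 2.51e-11), a fall in A/A beside a rise in S/S cells. Fzd5 also rose in S/S and fell in A/A cells (interaction -0.50 ± 0.06). Wnt7a fell in S/S and rose in A/A cells (interaction 1.964 ± 0.40), at levels of 0.341 to 1.71 CPM for every group mean but that of A/A siControl, which was 0.143 CPM. Fzd4 (0.36), Wnt5b (1.23) and Wnt2b (1.55) fell in S/S cells and did not pass in A/A cells. Znrf3 (-0.28), Rnf43 (-0.37), Lrp6 (-0.17), Wnt9a (-2.26) and Wnt11 had lower effects in A/A cells. The calls on Lrp6 and Wnt5b were narrow: Lrp6 was lost without replicate 4 of S/S siControl, 2 of S/S siChchd10, 2 or 4 of A/A siControl or 3 of A/A siChchd10 (adjusted p 0.0560 to 0.0740) or with no filter (0.0549), and Wnt5b without replicate 2 of S/S siControl, 1 of S/S siChchd10, 3 of A/A siControl or 1 or 2 of A/A siChchd10 (0.0519 to 0.0768). The Wnt9a difference was -1.55 with an adjusted p of 0.0680 without A/A siControl replicate 1. The effect on Wnt5a did not differ detectably (interaction 0.03 ± 0.18).

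In the pathway lists under siChchd10, Ctnnb1 rose in both genotypes, from 1309 ± 66.4 to 1549 ± 23.1 CPM in S/S (log2 0.24) and from 840 ± 27.9 to 1181 ± 43.3 CPM in A/A cells (log2 0.49). Porcn, which attaches the lipid to Wnt proteins, fell in A/A cells from 5.65 to 2.32 CPM (log2 -1.28 ± 0.10) and differed from its effect in S/S cells (interaction -1.46). Wls rose slightly in S/S (0.11) and A/A (0.20). Tspan12, a partner of Fzd4, rose in A/A cells from 19.0 to 41.5 CPM (log2 1.12 ± 0.06). Over all genes 53.7% passed in A/A cells (26.5% higher, 27.2% lower) and 28.0% in S/S cells, which are the shares to set beside the list counts. Of 11 β-catenin targets, 3 rose and 6 fell in A/A cells, with Bambi (1.31) and Sp5 (1.00) above and Ephb3 (-0.68) below, while Lef1 had 20 counts over the siControl and 3 over the siChchd10 libraries, a ratio of 7.64 with a counting interval of 2.27 to 40.1. In S/S cells 0 rose and 3 fell in that list, among them Lef1 (-1.04) and Apcdd1 (-0.62). Of 13 planar cell polarity genes, 0 rose and 8 fell in A/A cells, with Prickle1 at -1.31 among them. Other falls were Adgra2 (-1.10 in S/S, -0.89 in A/A), Lgr6 in S/S (-0.60), Kremen1 in A/A (-0.51), Dkk2 (-1.10 and -1.46), Pygo1 (-0.51 and -1.21) and Dvl1 in A/A (-0.49). Alveolar type 2 markers changed in the same A/A comparison, from a sum of 444 to 500 CPM in siControl to 1321 to 1574 CPM in siChchd10 libraries. The sum of mesenchymal markers went from 3197 to 3378 CPM to 2283 to 2702 CPM. Their part in the changes of Lgr4 and the other genes was not tested.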

How the data were processed

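RNA-seq of 24 libraries was available as 2 tables of deposited gene counts, made by the authors, 8 libraries with shRNA and 16 with siRNA. RNA was taken with Trizol and libraries were made with a stranded total RNA kit, per the labels' protocols, although the labels give the molecule as polyA RNA. The submitters' processing notes name mm10 and DESeq2 1.24.0; not given in the sources used here are the aligner, the counter, its strand setting and its annotation. All count columns matched a sample.

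Each table was fitted by itself with edgeR 4.0.16 (R 4.3.3, limma 3.58.1): TMM scaling, filterByExpr, 1 term per group, robust quasi-likelihood test, Benjamini-Hochberg adjustment over all genes tested, threshold 0.05. The SE of a log2 fold change is its size divided by the root of F, and intervals of log2 values are 1.96 SE to each side. Levels are CPM after TMM scaling; exon lengths came from GENCODE and coordinates and promoters from RefSeq GRCm38.p6. Detection used CPM of the plain totals. A count of 0 was set to a floor of 3 counts over the group, and 95% exact counting intervals cover counting error only. Alternatives were DESeq2 1.42.0, other scalings and filters, leaving out libraries and a replicate block. Figures were drawn with matplotlib 3.10.9. The tests were checked on simulated counts for the first comparison of each table. Those libraries were drawn independently, so the check does not cover spread shared by libraries with the same replicate number.

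Same-numbered shRNA libraries deviated from their group means together (correlations 0.450, 0.403, 0.241 and 0.789), so values with the replicate number as a block stand beside the shAtf4 results.

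The genes and lists were chosen with earlier results of these data known. Library values were given for the detected genes that passed, at most the 6 with the largest change per comparison, and for Wnt5a, Axin2, Lgr5, Rnf43 and Znrf3; list genes were named by the largest changes in each direction.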

Additional observations from a re-analysis of the deposited data

Results flagged for a closer look

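In 11 of 117 groups of 4 libraries examined, 1 library stood apart from the other 3 by Dixon's criterion; chance gives about 1 in 20. In A/A siControl replicate 1, Wnt7b was 4.104 CPM (others 0.150 to 0.652) and Wnt10a 2.875 CPM (others 0.0214 to 0.494). In A/A siControl replicate 4, Fzd7 was 66.8 CPM (others 69.9 to 70.2). In S/S siControl, Axin1 was 96.8 CPM in replicate 4 (others 88.6 to 89.5), Rnf43 7.788 CPM in replicate 4 (others 8.32 to 8.41), Fzd3 2.67 CPM in replicate 1 (others 2.07 to 2.13) and Fzd6 14.44 CPM in replicate 2 (others 16.8 to 17.1). In A/A siChchd10, Fzd4 was 58.87 CPM in replicate 2 (others 65.9 to 66.6) and Lrp5 231.8 CPM in replicate 4 (others 255.4 to 260.1). In the shRNA table, Fzd7 was 20.27 CPM in shControl replicate 4 (others 42.0 to 46.2) and Fzd6 1.07 CPM in shAtf4 replicate 2 (others 4.26 to 4.42).

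The siChchd10 effect differed between A/A and S/S cells by an interaction test for 11 of 29 genes, beside 35.6% of all genes. The calls on Lrp6, Wnt5b and Wnt9a were lost when some single libraries were left out, as given above. The A/A effect minus the S/S effect, as log2, was -0.99 for Lgr4, -0.50 for Fzd5, -0.37 for Rnf43, -0.28 for Znrf3, -0.17 for Lrp6 and -2.26 for Wnt9a. It was 0.36 for Fzd4, 1.23 for Wnt5b, 1.55 for Wnt2b and 1.964 for Wnt7a. The fitted value of -5.451 for Wnt11 depends on the prior count, since A/A siChchd10 held 0 counts.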

How the results depend on the processing

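Over 96 combinations of gene and comparison, 1510 values were computed under other settings, and 1416 kept their direction and their side of the threshold. These combinations were the calls of the main edgeR fit, with Wnt5a, Lgr5, Rnf43 and Znrf3 wherever they were tested. Calls gained by other genes are not counted, such as those under shAtf4 with the replicate block alone. Another was the Lrp5 interaction with no scaling beyond library totals (adjusted p = 0.0187, edgeR). Among the 1510 values, calls were lost in 67 and gained in 14, of which 8 were Wnt5a under siChchd10 in A/A. In 13 a value that had not passed changed sign. Within the 96 combinations DESeq2 gave 4 adjusted p-values as NA, those of Wnt7b and Wnt10a in both genotype comparisons, and these were left out. DESeq2 gave NA for these genes in both siChchd10 comparisons and the interaction as well, which lie outside the 96. Its log2 fold changes between the genotypes under siChchd10 were -7.45 for Wnt7b and -8.30 for Wnt10a. For shAtf4, where 1 gene passed, 3 passed with DESeq2 (Wnt5a, Wnt7a and Axin1), 2 with no filter, 9 with the replicate block and 4 without replicate 4 of both groups, and leaving out libraries gave 1 to 4. Over all genes that comparison called 79, and 490 with DESeq2, 2969 with the block and 13 to 1726 on leaving out libraries (536 without shControl replicate 4). Leaving out libraries gave 12 to 14 genes for siChchd10 in S/S, 10 to 14 in A/A, 10 to 13 for the interaction, 23 to 25 for genotype under siControl and 22 to 25 under siChchd10. Over all genes the calls in the same order were 4279 to 4970, 8935 to 9429, 5712 to 6894, 12354 to 12609 and 12450 to 12568. Same-numbered siRNA libraries correlated at -0.09 to 0.16. In the headers of the counts their number follows the word set, and what a set shares is not stated. With the replicate block 12, 11, 11, 24 and 23 genes passed in these 5 comparisons. Values that changed sign, none past the threshold, were Znrf3 under shAtf4 (-0.022 with no scaling, and -0.075 to 0.13 without single libraries), Lgr5 and Wnt5a under siChchd10 in S/S (-0.17 to 0.25 and -0.026 to 0.30 without single libraries) and the Wnt5a interaction (-0.0016 with no scaling, -0.11 to 0.22 without single libraries). The call on Fzd9 under siChchd10 between genotypes was lost without S/S or A/A replicate 1 (adjusted p 0.115 and 0.0808). The cause was not tested. At the depth of the shRNA table genes under 0.5 CPM could mostly not be tested.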
